A study of Homo sapiens with 8 samples.

Results

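The 10 genes described here form the switch that takes a cell from G1 into S phase. They are the D-type cyclins CCND1, CCND2 and CCND3, the E-type cyclins CCNE1 and CCNE2, the kinases CDK4, CDK6 and CDK2, the CDK inhibitor CDKN1B (p27) and the pocket protein RB1, chosen by name from the 56303 genes of the count table. They were measured in SK-N-BE(2), an established human neuroblastoma cell line with very high MYCN, by MeRIP-seq. The sh-NC arm had a control shRNA and the shMETTL14 arm an shRNA against METTL14, each delivered by lentivirus in a pLKO.1 vector and kept by puromycin selection. Each arm had 2 cultures. Taken by the numbers in the labels, each culture gave an IP library and an input library, 8 libraries in all. The IP was pulled down with an antibody against m6A, and the input held the same fragmented poly(A) RNA. The labels number the shMETTL14 cultures 1 and 2 without saying whether they hold the same shRNA, and nothing says how separately the cultures of an arm were grown, so that p-values measure the spread between these cultures only. The question behind the comparison is whether loss of METTL14 moves the RNA of the cell-cycle machinery and its m6A in neuroblastoma cells.

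In G1, D-type cyclins bind CDK4 or CDK6, and E-type cyclins bind CDK2. These kinases phosphorylate RB1, which otherwise holds E2F transcription factors inactive, and E2F then drives genes needed to copy DNA. CDKN1B binds cyclin E with CDK2 and blocks it. METTL14 is the partner of METTL3 in the enzyme that writes m6A on messenger RNA, and m6A is read by proteins that alter the decay and translation of the transcript.

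Total counts ran from 32027379 to 47205265 per library. METTL14, the shRNA's target, stood at 49.5 and 48.8 CPM (counts scaled to a common library size by TMM factors) in the sh-NC inputs against 13.7 and 14.6 in the shMETTL14 inputs, a log2 difference of -1.79 (SE 0.0663, adjusted p = 1.28e-15 by edgeR). The 10 sympathetic neuroblast markers reported here, MYCN, HAND2 and TH among them, were above 1 CPM in every input. Of 16 markers of fibroblasts, leukocytes, endothelium and epithelium, 7 were also above 1 CPM in every input, namely COL1A1, COL1A2, COL3A1, DCN, LUM, EPCAM and KRT8, while 7 were under 1 CPM in all of them. The summed level of the 16 was 305.5 to 306.4 CPM in sh-NC against 328 to 329.9 CPM in shMETTL14. Single markers moved in opposite directions within it, as DCN had 16.7 and 15.7 CPM in sh-NC against 41.1 and 39.8 in shMETTL14, LUM 29.8 and 23.2 against 41.9 and 42.0, and COL1A1 82.3 and 88.5 against 54.9 and 52.1. Of the neuroblast markers TH had 32.7 and 35.7 CPM in sh-NC against 68.9 and 70.2 in shMETTL14, and CHGA 303 and 307 against 450.1 and 456. MYCN, at 4452 and 4224 against 4310 and 4276, and PHOX2A, at 147 and 159 against 152 and 140.5, overlapped between the arms. The summed level of the 10, with MYCN the largest part, was 6465 and 6226 CPM in sh-NC against 6657 and 6596 CPM in shMETTL14. These markers were picked after their values were seen, and the part of any marker in the results below was not tested. RNA of many cells was pooled in each library, so that fewer cells in a phase of the cycle and less RNA per cell cannot be told apart.

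After METTL14 knockdown, the RNA of cyclin D1 fell and that of cyclin E1 rose, while of the kinases CDK4 rose and CDK2 fell, both by less. CCND1 was 0.706 times and CCNE1 1.80 times its sh-NC level. The study's authors report that METTL14 knockdown markedly lowered both cyclin D1 and cyclin E1, and they list western blot antibodies to both proteins. For cyclin E1 the RNA here thus moved the other way. These libraries measure RNA only, and the cause of the difference was not tested. The inhibitor CDKN1B, RB1, CDK6, CCND3 and CCNE2 did not pass the test. Of the 9 members tested in the 4 input libraries, 2 were higher and 2 were lower at an adjusted p under 0.05 in edgeR's quasi-likelihood test, where 11.7% of all 22245 genes tested were higher and 12.3% were lower. The median log2 difference of the 9 members was -0.03, beside 0.00 over all genes. CCND2 was left out of the test for want of reads.

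CCND1, at chr11:69641087-69654474 on the forward strand (GRCh38, as are the other positions in the count table), encodes cyclin D1. Its input level was 774 and 783 CPM in the sh-NC cultures against 545 and 549.5 CPM in the shMETTL14 cultures. Both sh-NC cultures were well above both shMETTL14 cultures, and the cultures of an arm differed by far less than the arms. The log2 difference was -0.50 (SE 0.0301, adjusted p = 8.15e-12 by edgeR), and leaving out each culture in turn gave -0.51 to -0.49. Of all genes tested, 7.51% had a lower value. CCND1 shares 10.3% of its exonic bases with ORAOV1 of the opposite strand, whose count was 15.7% of that of CCND1 and whose own input difference was -0.29 (SE 0.0442, adjusted p = 2.00e-05 by edgeR). Reads in such shared stretches appear to be counted for both genes.

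CCND1 was almost the only D-type cyclin RNA in these cells. Per kilobase of exon it made up 97.8% and 97.4% of the D-type cyclin level in the sh-NC inputs against 96.5% and 96.6% in the shMETTL14 inputs. CCND3, the cyclin D3 gene, had 20.9 and 24.7 CPM in sh-NC against 23.9 and 23.4 CPM in shMETTL14. The arms overlapped, and the log2 difference of 0.06 had a 95% interval of -0.09 to 0.21. CCND2, the cyclin D2 gene, had 10 counts over all 8 libraries, with 0 and 2 in the sh-NC inputs against 2 and 0 in the shMETTL14 inputs. A count of 0 in an input allows up to 0.0839 CPM at most among the 4 inputs, in counting error only and if reads were counted independently. The fall of CCND1 was therefore not matched by a called rise of another D-type cyclin.

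CCNE1, at chr19:29811898-29824308 on the forward strand, encodes cyclin E1, and none of its exonic bases lie in another gene of the table. Its sh-NC inputs held 511 and 510 counts against 997 and 1148 in the shMETTL14 inputs, or 14.3 and 14.1 CPM against 23.5 and 27.5 CPM. Both shMETTL14 cultures were far above both sh-NC cultures, with culture 2 the higher of the pair. The log2 difference was 0.85 (SE 0.0836, adjusted p = 3.66e-08 by edgeR), running from 0.73 to 0.96 with each culture left out. Of all genes tested, 97.4% had a lower value. CCNE2, the cyclin E2 gene, did not share this rise, at 29.0 and 27.3 CPM in sh-NC against 27.2 and 27.7 CPM in shMETTL14 (log2 -0.03, 95% interval -0.16 to 0.10). CCNE2 shares 37.1% of its exonic bases with INTS8 of the opposite strand, which had 92.6% as many counts and an input difference of 0.00, so that its value is uncertain. Per kilobase, CCNE1 was at 0.849 and 0.895 times the CCNE2 level in sh-NC against 1.49 and 1.71 times in shMETTL14. By these counts CCNE2 stood above CCNE1 in both sh-NC cultures and below it in both shMETTL14 cultures. The order in sh-NC is not settled, since how many reads INTS8 adds to CCNE2 is unknown.

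The stretch before the CCNE1 start is shown because CCNE1 had the largest rise among the members. It lies at chr19:29811741-29811897 (GRCh38.p14, RefSeq promoter table, forward strand), from 250 to 94 bases before the RefSeq start, and its capitals mark the 5 positions of a GC box, GGGCGG or its reverse complement CCGCCC, the core bound by Sp1-family factors.
CCNE1: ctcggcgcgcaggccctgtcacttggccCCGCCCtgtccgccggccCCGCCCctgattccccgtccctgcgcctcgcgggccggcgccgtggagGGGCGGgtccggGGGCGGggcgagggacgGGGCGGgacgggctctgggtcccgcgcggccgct
Counting both strands, 7 GC boxes stood in the 250 bases before the RefSeq start of CCNE1. Those at 72 and 61 bases before it lie past the CCNE1 start of the count table, 29811898, and are not in the stretch shown. At least 1 is held by 42.6% of 35116 windows of this length in the table, and how many hold 7 was not counted. Windows of other members in this promoter table held 5, 2 and 0 for CCND3, 3 and 0 for CDK6, 3 for CDK4, 1 for CDKN1B and 0 for RB1. Of the 10 members, 6 are in that table. RB1 is there only with a window at chr13:48476200-48476499, inside the gene, whose start in the count table is 48303751. The bases before that start were not searched. The E2F motifs searched on both strands, TTTCGCGC, TTTGGCGC and TTTCCCGC, stood in none of these 6 members' windows and in 0.439%, 0.55% and 1.39% of all windows.

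**Figure D1:**
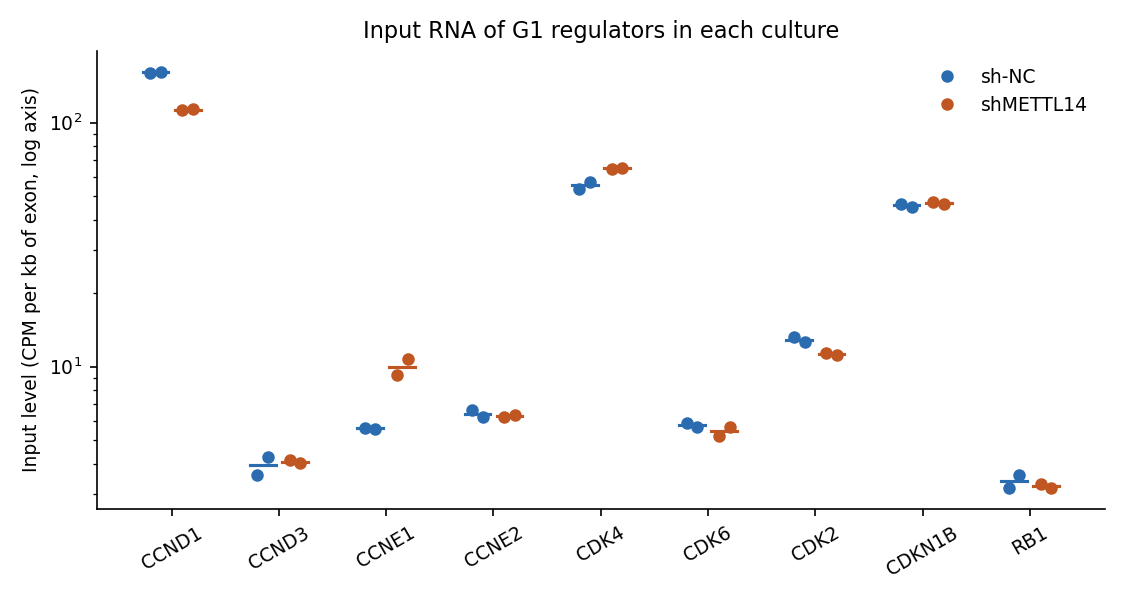
Input level of the 9 members with reads in each culture, in CPM per kilobase of exon on a log axis, with sh-NC in blue and shMETTL14 in orange. Points are cultures and short lines are the means of 2. CCND1 sat at 160 to 162 in sh-NC against 113 to 114 in shMETTL14, CCNE1 rose from about 5.6 to 9.2 and 10.8, and the levels of CCND3, CDKN1B and RB1 lay close together in the arms.

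CDK4, at chr12:57747727-57756013 on the reverse strand, encodes a kinase partner of the D-type cyclins and was the more abundant of the pair, at 9.13 and 10.2 times the CDK6 level per kilobase in the sh-NC inputs against 12.4 and 11.6 times in the shMETTL14 inputs. Its input level was 170 and 182 CPM in sh-NC against 204 and 207 CPM in shMETTL14. The arms did not overlap, and the gap between them was wider than that between the sh-NC cultures. The log2 difference was 0.23 (SE 0.0383, adjusted p = 5.78e-05 by edgeR), with an adjusted p of 0.0707 without shMETTL14 culture 2. TSPAN31 of the opposite strand covers 43.2% of the exonic bases of CDK4 and had 52.3% as many counts. It was also higher in the shMETTL14 inputs, by 0.18 (SE 0.0427, adjusted p = 0.00304 by edgeR), and how much each gene adds to the other's count cannot be told apart.

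The window before the RefSeq start of CDK4 holds 3 E-boxes, CACGTG, the core bound by MYC and MYCN, and 6.34% of windows hold at least 1. They are shown in capitals with 6 bases each side on the reverse strand (GRCh38.p14, RefSeq promoter table), at 216, 196 and 101 bases before the start. They were chosen since, of the 6 members with a window, only CDK4 had this motif, and every input held at least 4224 CPM of MYCN. MYCN had 4452 and 4224 CPM in sh-NC against 4310 and 4276 CPM in shMETTL14, which overlapped. Any part of MYCN in the CDK4 level was not tested. The sites lie at chr12:57752515-57752532, chr12:57752495-57752512 and chr12:57752400-57752417, within the span that the count table gives CDK4.
CDK4 site 1: agcggtCACGTGtgatag
CDK4 site 2: acagatCACGTGgctgcc
CDK4 site 3: ggcggtCACGTGcccaga
A match describes the letters of this window and no measured binding.

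CDK6, the other partner of D-type cyclins, had 72.1 and 69.2 CPM in sh-NC against 63.6 and 69.4 CPM in shMETTL14, which overlapped (log2 -0.08, 95% interval -0.18 to 0.02). CDK2, the partner of E-type cyclins, had 51.4 and 48.9 CPM in sh-NC against 44.1 and 43.5 CPM in shMETTL14. Both shMETTL14 cultures were below both sh-NC cultures, by a log2 difference of -0.19 (SE 0.0534, adjusted p = 0.00994 by edgeR). The direction held with each culture left out, but the adjusted p was 0.0928 without sh-NC culture 1, 0.0923 without shMETTL14 culture 1, 0.163 without shMETTL14 culture 2 and 0.102 with no filter on low counts. A gene of 565 bases on the opposite strand, RP11-973D8.4, lies wholly inside the exons of CDK2 and had 69.7% as many counts, with an input difference of -0.14 (adjusted p = 0.131 by edgeR).

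CDKN1B, at chr12:12715058-12722371, had 131 and 127 CPM in sh-NC against 133 and 131 CPM in shMETTL14. Its log2 difference of 0.04 had a 95% interval of -0.04 to 0.11. RB1, at chr13:48303751-48481986, had 19.6 and 22.2 CPM in sh-NC against 20.3 and 19.6 CPM in shMETTL14 (log2 -0.06, 95% interval -0.21 to 0.10). The arms overlapped for both genes, and neither shares exonic bases with another gene.

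**Figure D2:**
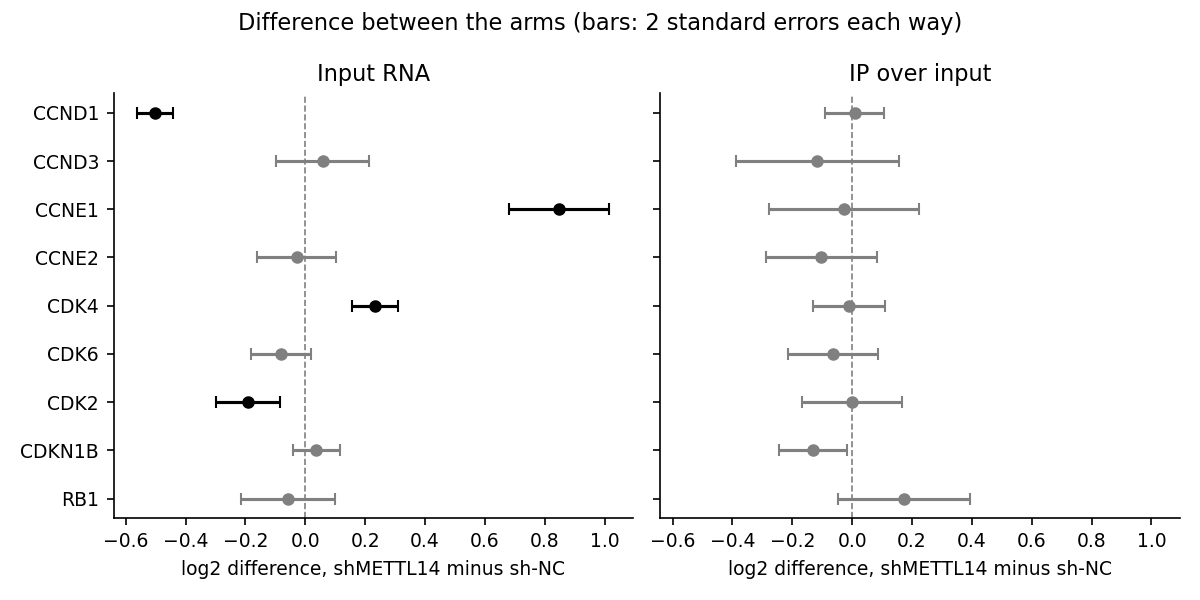
Log2 difference of shMETTL14 from sh-NC for the 9 members tested, in input RNA (left) and in IP over input (right), with bars of 2 standard errors each way from the edgeR fits. Black points had an adjusted p under 0.05. In input RNA CCND1 (-0.50) and CDK2 (-0.19) lay below 0 and CCNE1 (0.85) and CDK4 (0.23) above it, while all 9 points of IP over input were grey.

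Set side by side per kilobase in the sh-NC inputs, the members ran from CCND1 (160 and 162 CPM per kilobase) through CDK4 (53.7 and 57.3), CDKN1B (46.6 and 45.3) and CDK2 (13.2 and 12.6) to CCNE2, CDK6, CCNE1, CCND3 and RB1, the last at 3.17 and 3.59, with CCND2 at 0 and 0.00775. The ranges of neighbours in this order did not overlap between the 2 cultures. In shMETTL14 the order was the same except that CCNE1 passed CCNE2 and CDK6 to stand at place 5, at 9.22 and 10.8. The level of CCND1 was 2.98 and 2.83 times that of CDK4 in sh-NC against 1.75 and 1.74 times in shMETTL14. In the opposite direction, the E-type cyclins together were at 0.924 and 0.935 times the level of CDK2 in sh-NC against 1.36 and 1.53 times in shMETTL14. The order and these ratios restate the levels above and carry the uncertainty of CDK4, CDK2 and CCNE2.

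The members fell on both sides of the average in their capture by the m6A antibody. IP over input is the CPM of a culture's IP library divided by that of its input, so that a value above 1 means a transcript pulled down more than the average gene. In sh-NC, 2 of the 9 members were higher in the IP than in the input, CDKN1B and CCNE2, and 6 were lower, where 29.1% of 22953 genes tested were higher and 29.8% were lower by edgeR. In shMETTL14 the same 2 were higher and the same 6 lower, where 28.9% of genes were higher and 29.1% lower. RB1 was called in neither arm. The values are per whole gene and hold no position of m6A within it.

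CDKN1B was the member most enriched by the antibody. The ratio stood at 1.51 and 1.55 in the sh-NC cultures against 1.39 and 1.41 in the shMETTL14 cultures, from 9000 and 6008 counts in the sh-NC IPs against 5686 and 6249 in the shMETTL14 IPs. Both arms were above 1 in every culture, with a log2 IP over input of 0.61 (SE 0.0400, adjusted p = 5.48e-19 by edgeR) in sh-NC against 0.48 (SE 0.0399, adjusted p = 3.04e-15 by edgeR) in shMETTL14. CCNE2 had 1.26 and 1.35 in sh-NC against 1.27 and 1.16 in shMETTL14, a log2 of 0.38 and 0.28. Without shMETTL14 culture 1, the adjusted p of the latter was 0.0721. INTS8, which shares bases with CCNE2, had -0.10 and -0.27.

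CCND1, CCND3, CCNE1 and the 3 kinases were depleted in the IP. CCND3 was the lowest, at 0.477 and 0.344 in sh-NC against 0.355 and 0.399 in shMETTL14, a log2 of -1.29 and -1.41. CDK4 followed at 0.534 and 0.489 in sh-NC against 0.501 and 0.511 in shMETTL14 (log2 -0.97 and -0.98), with its neighbour TSPAN31 at -1.09 and -1.07. The log2 values of the other depleted members lay between -0.64 and -0.39 in both arms. CDK2 had -0.64 in both arms, CCND1 -0.59 and -0.58, CDK6 -0.44 and -0.50, and CCNE1 -0.39 and -0.42. The sh-NC value of CCNE1 had an adjusted p of 0.0589 by edgeR without sh-NC culture 1. RB1 was near 1 throughout, at 1.02 and 0.924 in sh-NC against 1.08 and 1.10 in shMETTL14. The E-type cyclins thus stood on opposite sides, CCNE2 above 1 and CCNE1 below it in every culture.

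**Figure D3:**
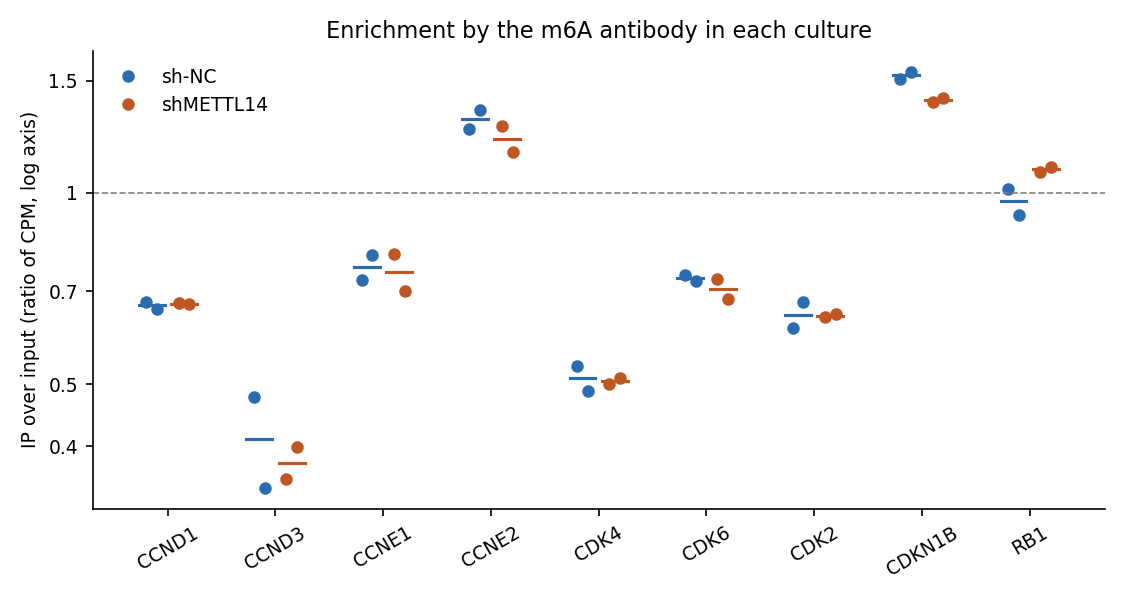
IP over input of the 9 members with reads in each culture, as a ratio of CPM on a log axis, with sh-NC in blue and shMETTL14 in orange. Points are cultures, short lines are the means of 2, and the dashed line marks 1. CDKN1B (1.39 to 1.55) and CCNE2 (1.16 to 1.35) lay above the line, and CCND3 (0.344 to 0.477) and CDK4 (0.489 to 0.534) were the lowest.

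For no member did the difference in antibody capture between sh-NC and shMETTL14 pass the test. The interaction of arm and library type called 0 of 9 members at an adjusted p under 0.05 by edgeR, where 0% of 22953 genes were higher and 0.00436% were lower. At an unadjusted p under 0.05 there was 1 member, and DESeq2 also called 0 members with 1 at an unadjusted p under 0.05. Over all genes 6.34% were under this unadjusted value by edgeR. That member in the edgeR fit was CDKN1B, whose IP over input was lower in both shMETTL14 cultures than in both sh-NC cultures, by a log2 difference of -0.13 (SE 0.0564, unadjusted p = 0.0251, adjusted p = 0.719 by edgeR). Over the alternatives with all 8 libraries its adjusted p ran from 0.626 to 1. An exact two-sided permutation test of 2 cultures against 2 cannot go below p = 0.333. RB1 had the largest difference upward, 0.17 (SE 0.111, adjusted p = 0.851 by edgeR), and its arms did not overlap either.

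For the genes whose RNA moved most, the intervals of the change were narrow or wide according to their reads. CCND1 had a change of 0.01 with a 95% interval of -0.09 to 0.11, CDK4 of -0.01 with -0.13 to 0.11, CDK2 of 0.00 with -0.16 to 0.16, and CCNE1, with fewer reads, of -0.03 with -0.27 to 0.22. The input libraries enter both the input comparison and this one. Loss of m6A in equal proportion from every gene would be taken out by the scaling and would leave these values as they are.

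Among the other genes of the pathway, most E2F targets on the list used here fell. The list was chosen with earlier results of these data known. Of 21 E2F target genes of the G1/S transition, 18 fell in input RNA and 1 rose by edgeR, and their median log2 difference was -0.25, beside 0.00 over all genes and the 12.3% of all genes that were lower. The lowest mean input count on the list was 725 (ORC1), and the share among genes with as many reads was not computed. RRM2, a subunit of ribonucleotide reductase, had 244 and 244 CPM in sh-NC against 150 and 153 CPM in shMETTL14, a difference of -0.68 (SE 0.0356, adjusted p = 6.89e-13 by edgeR). The replicative helicase subunits MCM5 and MCM4 fell by 0.51 and 0.46 on the log2 scale, and thymidylate synthase, TYMS, fell by 0.49. TYMS shares 26.2% of its exonic bases with genes of the opposite strand. MCM6, of the same helicase, was the 1 that rose, by 0.20 (adjusted p = 0.00122 by edgeR, and 0.105 without shMETTL14 culture 2). The number of falling genes was 11 without shMETTL14 culture 2, 13 without shMETTL14 culture 1 and 10 with no filter on low counts. CCND1 thus fell alongside most of these genes, as did CDK2, whose call was lost with some cultures left out. CCNE1, itself a known E2F target that is not on the list, rose, while CCNE2 (-0.03) was not called.

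The other CDK inhibitors and pocket proteins had 1 gene higher and 3 lower of 9, with a median log2 difference of -0.20. Over all genes tested in input, 11.7% were higher and 12.3% lower. CDKN2D (p19INK4d), an inhibitor of CDK4 and CDK6, had 6.52 and 6.90 CPM in sh-NC against 13.6 and 14.1 CPM in shMETTL14, a difference of 1.05 (SE 0.104, adjusted p = 3.91e-08 by edgeR). Both shMETTL14 cultures were well above both sh-NC cultures. The pocket proteins RBL1 (p107) and RBL2 (p130) fell by 0.47 and 0.20, and CDKN3, a phosphatase of CDK2, fell by 0.33. RBL2 lost its call without sh-NC culture 1 (adjusted p = 0.118 by edgeR) and without shMETTL14 culture 2 (0.288), and shares 18.2% of its exonic bases with other genes. CDKN3 lost its call without shMETTL14 culture 2 (0.0713).

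The E2F factors and their partners had 1 gene higher and 3 lower of 10, with a median of -0.09, beside 11.7% and 12.3% of all genes. The partner TFDP2 rose by 0.24, with an adjusted p of 0.0547 by edgeR without shMETTL14 culture 2. The repressor E2F8 fell by 0.56 (SE 0.107, adjusted p = 3.61e-04 by edgeR) and E2F7, of the same kind, by 0.23. TFDP1 fell by 0.14. E2F7 lost its call with any culture left out (adjusted p from 0.0840 to 0.204 by edgeR), and TFDP1 did without sh-NC culture 1 and without either shMETTL14 culture (0.0634 to 0.191). The activators E2F1, E2F2 and E2F3 had -0.02, -0.14 and -0.06 and were not called, values that were chosen for their role after they had been seen.

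Of 18 genes that activate the G1 kinases or turn over cyclins and p27, 3 were higher and 4 lower, with a median of -0.01. The shares over all genes were 11.7% higher and 12.3% lower. FBXW7, the ubiquitin ligase receptor that marks cyclin E for destruction, had 52.4 and 52.7 CPM in sh-NC against 68.3 and 65.5 CPM in shMETTL14, a difference of 0.36 (SE 0.0490, adjusted p = 5.76e-06 by edgeR). CDC37, the cochaperone that loads CDK4 onto HSP90, rose by 0.27 and GSK3B, a kinase that acts on cyclins D1 and E, by 0.16. SKP2, the receptor that marks p27 for destruction, fell by 0.24 and its helper CKS1B by 0.39. MNAT1, a part of the CDK-activating kinase, fell by 0.46 and CDC25A, the phosphatase that activates CDK2, by 0.26. The calls of GSK3B, SKP2, CKS1B and CDC25A were lost without shMETTL14 culture 2 (adjusted p from 0.0586 to 0.254 by edgeR), as was that of GSK3B without sh-NC culture 2 (0.143), and those of GSK3B and CDC25A without shMETTL14 culture 1 (0.0883 and 0.110) and of CDC25A without sh-NC culture 1 (0.0967).

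In IP over input, 0 genes of any of the 4 lists were called as changed between the arms by edgeR or by DESeq2. At an unadjusted p under 0.05 edgeR gave 2 among the other inhibitors and pocket proteins, 0 among the E2F factors, 1 among the genes of activation and turnover and 3 among the E2F targets, beside 6.34% of all genes. Within the arms, 6 of the 21 E2F targets were higher and 14 lower in the IP than in the input in sh-NC, and 4 and 14 in shMETTL14. Over all genes 29.1% were higher and 29.8% lower in sh-NC, against 28.9% higher and 29.1% lower in shMETTL14. With scaling by library size only, 2 were higher in each arm.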

How the data were processed

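The authors deposited raw read counts per gene for 8 MeRIP-seq libraries, unnormalized. Trimmomatic 0.36 and GRCh38 are named in the submitters' processing notes. The aligner, counter, strand setting, annotation and handling of molecular identifiers are not given in the sources used here. If duplicate reads were kept, counts are not independent molecules.

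The test was the quasi-likelihood F test of edgeR 4.0.16 (glmQLFit, glmQLFTest; R 4.3.3) after filterByExpr and TMM scaling, with Benjamini-Hochberg adjustment over all genes tested. The input comparison used the 4 input libraries, and IP over input and its change used 1 model of all 8. CPM used the TMM factors of the 8 libraries. The standard error is the absolute log2 difference divided by the root of F, and 95% intervals are 1.96 standard errors each way. The fits were tested on simulated counts. The members and lists were chosen with earlier results of these data known. Of each list, up to 4 genes with the largest rise and 4 with the largest fall were named, among those called with a mean of at least 50 input counts. Genes were also named for overlapping a member. One marker gene is not reported here. Alternatives were RLE factors, library size only, DESeq2 1.42.0, no filter, at least 10 counts in every library, a replicate block, the input comparison from all 8 libraries, and leaving out each culture. Replicate libraries differed by more than the sampling noise of independent counts (chi-square per gene 2.43 to 3.99). The counts of CCND2 were all even (0, 2 or 4), and whether both mates of a read pair were counted was not tested. Counting both would raise the chi-square without added spread.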

Additional observations from a re-analysis of the deposited data

How the results depend on the processing

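With 2 cultures per arm the spread between cultures limits the precision, and members with fewer counts, such as CCND3, RB1 and CCNE1, have larger standard errors than CCND1. The numbers of members called were 2 higher and 2 lower in input. With the replicate block they were again 2 and 2, and 0 changed in IP over input. The deviations of same-numbered libraries correlated by -0.0174 between the inputs of the arms and by -0.0187 and -0.00783 between a culture's IP and input. These values were taken over all genes kept, with their counting noise, and cannot show whether the numbers carry a pairing. With no filter the number lower in input was 1, as CDK2 was lost. Leaving out each culture gave 1 to 2 higher and 1 to 2 lower in input, and 1 to 2 higher in IP over input of shMETTL14. Library size alone moved the median of all genes in IP over input to -0.142 in sh-NC and -0.128 in shMETTL14, with no call of a member changed.

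Values near 0 turned sign with a culture left out. In input these were CCND3 (-0.05653 to 0.181), CCNE2 (-0.07582 to 0.01592) and RB1 (-0.1461 to 0.03148). In IP over input of sh-NC it was RB1 (-0.1002 to 0.02642). For the change of IP over input these were CCND1 (-0.01236 to 0.01008), CCND3 (-0.3408 to 0.1151), CCNE1 (-0.1229 to 0.07311), CDK4 (-0.07548 to 0.034), CDK2 (-0.08849 to 0.06324) and METTL14 (-0.002608 to 0.1877). The change of CCND1 was -0.003252 with no filter and that of CDK2 0.007213 with library size only. Among the named genes, DESeq2 ended the calls of RBL2, E2F7, TFDP1 and CDC25A in input (adjusted p from 0.0510 to 0.134), and no filter those of CDK2, RBL2, E2F7, TFDP1, GSK3B, CDC25A and SKP2 (0.0749 to 0.188). The causes were not tested. The list counts were recomputed under the same alternatives after the data had been seen. The numbers of all genes in input were 2607 higher and 2732 lower, and 1082 and 1072 with no filter. Without shMETTL14 culture 2 they were 656 and 925, and without shMETTL14 culture 1 they were 1355 and 1523. The number with a lower change of IP over input was 1, 2 with RLE factors, 3 when every library needed 10 counts, 12 with no filter, 0 with DESeq2 and 0 to 116 with a culture left out. The number with a higher change was 0, and 1 with no filter and 0 to 9 with a culture left out.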
